A study of Mus musculus with 4 samples.

Results

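Tropomyosins, tropomodulins and leiomodins were described in differentiating C2C12 cells, a mouse skeletal myoblast line that fuses into myotubes once growth medium is replaced by differentiation medium (DM). The 9 genes are the tropomyosins Tpm1, Tpm2, Tpm3 and Tpm4, the tropomodulins Tmod1, Tmod3 and Tmod4, and the leiomodins Lmod2 and Lmod3. They were chosen by symbol, as 9 of 24850 entries with a gene symbol in the total RNA tables and of 24992 in the polyA tables, and every member had 1 entry in each table. Total RNA depleted of rRNA was sequenced from myoblasts (MB, DM -24 h) and from myotubes (MT, DM 72 h). PolyA RNA was sequenced from C2C12 cells at DM 48 h that received an siRNA against the RNA-binding protein hnRNPL (si-hnRNPL) or a control siRNA (si-NC). All 4 groups come from this single established line, carry no other labelled alteration and hold 1 library each, so differences below rest on single cultures and p-values are not used.

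Tropomyosin is a coiled-coil dimer that polymerizes head to tail along both sides of an actin filament and, in striated muscle, moves with the troponin complex to open or close the myosin binding sites on actin. Tropomodulins cap the pointed ends of actin filaments, which they bind together with tropomyosin, and so hold thin filaments at an even length. Leiomodins are longer relatives of tropomodulin that nucleate actin filaments and promote their growth at the pointed end, and loss of LMOD3 in humans causes nemaline myopathy. Each tropomyosin gene makes several proteins through alternative promoters and exons, among them long muscle forms and shorter cytoskeletal forms.

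The genes lie on 5 mouse chromosomes (mm9). Tpm1 is at chr9:66870400-66897020, Tpm2 at chr4:43526598-43536426, Tpm3 at chr3:89876573-89904824 and Tpm4 at chr8:74659191-74677028. Tmod1 is at chr4:46052094-46128904, Tmod3 at chr9:75345591-75407464 and Tmod4 at chr3:94928436-94933130, while Lmod2 and Lmod3 share a chromosome, at chr6:24547771-24555414 and chr6:97188522-97202774. The annotation of this build gives Tpm1 16 protein-coding transcripts from 2 groups of start sites, Tpm3 9 from 2 groups, Tpm2 5 from 1 group and Tpm4 1. Among the coding transcripts of Tpm1, 7 encode a protein of 284 residues and 3 one of 248 residues, and Tpm3 has 2 and 3 of these lengths. The Tpm4 protein has 248 residues, and the full proteins of Tmod1, Tmod3 and Tmod4 have 359, 352 and 345. Lmod2 and Lmod3 encode longer proteins of 550 and 571 residues. The deposited tables hold 1 value per gene, so a level of Tpm1, Tpm2 or Tpm3 sums muscle and cytoskeletal forms.

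RefSeq promoter sequence was found for 7 of the 9 members, in 8 entries, and was not found for Tmod3 and Lmod3. The promoters of Lmod2 and Tmod1, which were higher in MT, are shown beside those of Tpm4 and Tpm3, which were lower in the FPKM as deposited. Both starts of Tpm3 are shown, and the level from each start was not measured. Each covers 250 bases before to 50 bases after a start site on GRCm38.p6, 5′ to 3′, and all 5 lie on the plus strand: Lmod2 at chr6:24597521-24597820, Tmod1 at chr4:46038972-46039271, Tpm4 at chr8:72135038-72135337, and the Tpm3 starts at chr3:90072401-90072700 and chr3:90079271-90079570. Capitals mark CANNTG, the E-box that MyoD and myogenin bind, and CATTCC, the M-CAT motif of TEAD factors, both searched on both strands.
Lmod2: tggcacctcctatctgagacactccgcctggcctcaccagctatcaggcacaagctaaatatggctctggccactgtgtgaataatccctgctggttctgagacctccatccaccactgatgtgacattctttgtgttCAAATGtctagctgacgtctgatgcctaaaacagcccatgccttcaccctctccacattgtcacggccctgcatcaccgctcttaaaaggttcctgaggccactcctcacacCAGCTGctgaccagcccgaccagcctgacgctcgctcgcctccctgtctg
Tmod1: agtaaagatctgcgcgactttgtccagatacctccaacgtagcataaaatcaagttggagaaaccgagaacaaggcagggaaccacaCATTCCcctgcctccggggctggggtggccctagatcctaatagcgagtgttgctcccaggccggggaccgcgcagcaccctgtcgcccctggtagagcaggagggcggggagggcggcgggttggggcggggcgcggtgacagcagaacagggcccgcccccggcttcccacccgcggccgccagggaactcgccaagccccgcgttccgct
Tpm4: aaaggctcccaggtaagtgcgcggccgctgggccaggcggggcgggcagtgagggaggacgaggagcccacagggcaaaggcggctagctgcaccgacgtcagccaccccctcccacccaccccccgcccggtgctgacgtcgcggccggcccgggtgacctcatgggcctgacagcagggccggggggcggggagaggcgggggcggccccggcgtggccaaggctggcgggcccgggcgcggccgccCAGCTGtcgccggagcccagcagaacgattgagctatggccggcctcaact
Tpm3, first start: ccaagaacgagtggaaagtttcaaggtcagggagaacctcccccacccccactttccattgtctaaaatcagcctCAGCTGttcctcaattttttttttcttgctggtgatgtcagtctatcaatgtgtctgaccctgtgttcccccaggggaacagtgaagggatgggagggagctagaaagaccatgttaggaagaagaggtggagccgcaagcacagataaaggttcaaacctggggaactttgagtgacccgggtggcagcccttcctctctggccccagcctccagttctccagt
Tpm3, second start: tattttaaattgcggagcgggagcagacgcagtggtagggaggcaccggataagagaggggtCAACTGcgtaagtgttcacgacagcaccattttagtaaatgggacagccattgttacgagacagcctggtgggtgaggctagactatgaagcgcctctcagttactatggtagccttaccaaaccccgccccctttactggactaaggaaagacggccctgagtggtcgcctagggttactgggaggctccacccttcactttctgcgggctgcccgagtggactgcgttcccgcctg
Positions count from 0 at the start site. The Lmod2 window held an E-box at -112 and a second one, CAGCTG, at 0. The Tpm4 window held CAGCTG at -1 and the first Tpm3 window at -175, and the second Tpm3 window held CAACTG at -188. The Tmod1 window held no E-box and 1 CATTCC at -163. Of the 32851 promoters of this length, 72.3% held CANNTG, 16.3% held CAGCTG, which is one of the CANNTG sequences, and 14.7% held CATTCC. No member window held TATAAA, a CArG box (the motif of serum response factor) or an MEF2 motif, which were present in 13.6%, 1.63% and 3.19% of all promoters. E-boxes were thus found both in the window of Lmod2 and in those of Tpm3 and Tpm4. The windows not shown also held them, Tpm1 at -198, Tpm2 at -227 (CAGCTG) and Tmod4 at -193 and -63. The Tpm1 window held CATTCC as well, at -56.

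Levels are FPKM, fragment numbers scaled by transcript length and by library size, which allows genes to be compared within a library. Each value is followed by the 95% interval that Cufflinks gave it, which covers counting and assignment error within that library only. The intervals implied about 59960200 fragments in MB, 54442400 in MT, 21341100 in si-NC and 14592500 in si-hnRNPL over all entries. Because the intervals cover more than counting error, these totals are not read counts. In si-NC, for example, Actg1 at 1397 FPKM implied 2369 fragments and Actb at 1229 FPKM implied 71981. In MB, the short microRNA entries Mir3113 and Mir5098 held 29.4% and 8.74% of the summed FPKM of named entries, and this sum was 621542 in MB against 296284 in MT. Myogenic markers (Myod1, Myf5, Des, Cdh15) were at or above 1 FPKM in all 4 libraries. All 4 differentiated muscle markers found in each table (Myog, Myh3, Ckm and the myomaker gene) were under 1 FPKM in MB and above it in the other 3 libraries. Of the 4 cardiac markers 0 or 1 reached 1 FPKM in any library, and the blood and adipocyte lists summed to between 0.0446 and 1.13 FPKM.

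**Figure D1:**
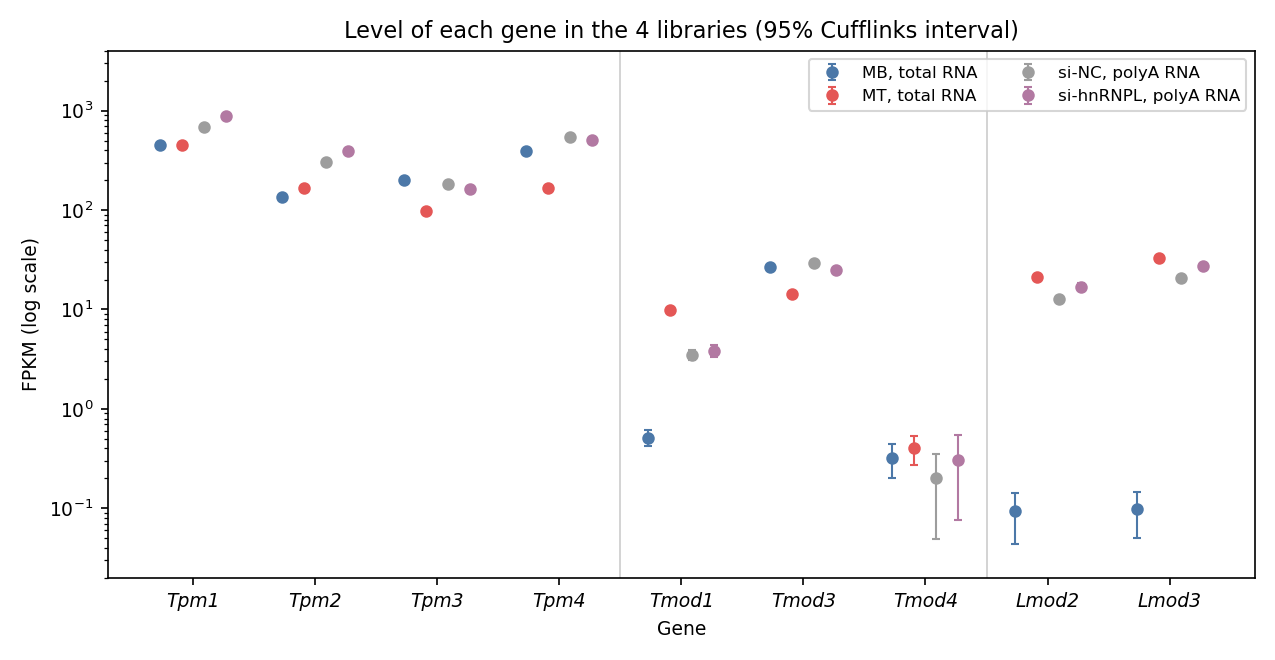
FPKM of the 9 genes (log axis) in the 4 libraries, 1 point per library, with the 95% Cufflinks interval as the bar. Tpm1 is the highest member in every library, from 451 to 881 FPKM, and Lmod2 and Lmod3 stand near 0.1 FPKM in MB and between 12.7 and 32.9 FPKM in the other 3 libraries.

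The comparison of MT with MB asks which of these genes go with differentiation. Lmod2, Lmod3 and Tmod1 were far higher in MT. Tpm3, Tpm4 and Tmod3 were lower in the FPKM as deposited, and Tpm1 stood at the same level to within its interval. Changes are log2((FPKM + 1) ratio), and a gene was counted as up or down at 0.58 or more, which is close to the study's own limit of 1.5-fold. Entries with a mean FPKM of at least 1 over both libraries were counted, and 8 of the 9 members passed, Tmod4 being too low. Of these 8, 3 were up, 3 down and 2 neither. Over all 11486 named entries counted, 14.6% were up and 28.9% down. Tmod1, Lmod2 and Lmod3 passed the limit on level only through MT and therefore had to differ, so the 3 up are not evidence about the family. Over the 5 members that reached 1 FPKM in MB and in MT the median log2 change was -0.84. The median was -0.21 over all entries counted, which include entries under 1 FPKM in MB or in MT. Over all 8 members counted the median was 0.16, which rests on the 3 that passed through MT.

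Tpm1, the main tropomyosin of fast striated muscle and of many other cells, was at 451 FPKM (446 to 456) in MB and 456 FPKM (451 to 460) in MT. Its log2 change was 0.01 (-0.01 to 0.04), and the intervals of both levels overlapped. It was the highest member in both libraries and stood among the top 0.772% of entries that reached 1 FPKM in MB and the top 0.270% in MT. Tpm2, which encodes beta-tropomyosin of slow and fast fibres, was at 136 FPKM (134 to 138) in MB and 167 FPKM (165 to 169) in MT. Its log2 change of 0.30 (0.27 to 0.32) was beyond counting error and short of the limit for a call.

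Tpm3, the source of slow muscle alpha-tropomyosin and of cytoskeletal forms, was at 199 FPKM (197 to 202) in MB and 98.3 FPKM (96.4 to 100.2) in MT. This was 2.03-fold lower (1.98 to 2.07), a log2 change of -1.01. Tpm4, a tropomyosin of the cytoskeleton, was at 393 FPKM (390 to 396) in MB and 166 FPKM (164 to 168) in MT, 2.37-fold lower (2.34 to 2.41), a log2 change of -1.24. When the FPKM of both libraries were rescaled to equal sums, the change of Tpm4 shrank to -0.18 and that of Tpm3 turned to 0.049. Tpm1 and Tpm2 then came to 1.08 and 1.36, beside a median of 0.78 over all entries counted. With only loci of 200 bp or more in the sums, Tpm4 stood at -0.68, Tpm3 at -0.45, Tpm1 at 0.58 and Tpm2 at 0.86. The median over all entries counted was 0.31 in that setting. Centred on the median of all entries counted, Tpm1 stood at 0.23, Tpm2 at 0.51, Tpm3 at -0.80 and Tpm4 at -1.03.

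Shares within a library do not depend on how libraries are scaled. Tpm1 held 38.3% (38.0 to 38.5) of the summed tropomyosin FPKM in MB and 51.4% (51.1 to 51.7) in MT, and Tpm2 held 11.5% (11.4 to 11.7) and 18.8% (18.6 to 19.1). Tpm4 held 33.3% (33.1 to 33.6) in MB and 18.7% (18.5 to 18.9) in MT, and Tpm3 16.9% (16.7 to 17.1) and 11.1% (10.9 to 11.3). Tpm1 and Tpm2 together thus made up 49.8% (49.5 to 50.03) in MB and 70.2% (69.97 to 70.5) in MT. For each FPKM of Tpm4 there was 0.345 FPKM of Tpm2 (0.340 to 0.351) in MB and 1.01 (0.993 to 1.03) in MT. A larger part of the tropomyosin message thus came from Tpm1 and Tpm2 in the myotube library, and Tpm2 and Tpm4, which were 136 and 393 FPKM in MB, had overlapping intervals in MT.

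**Figure D2:**
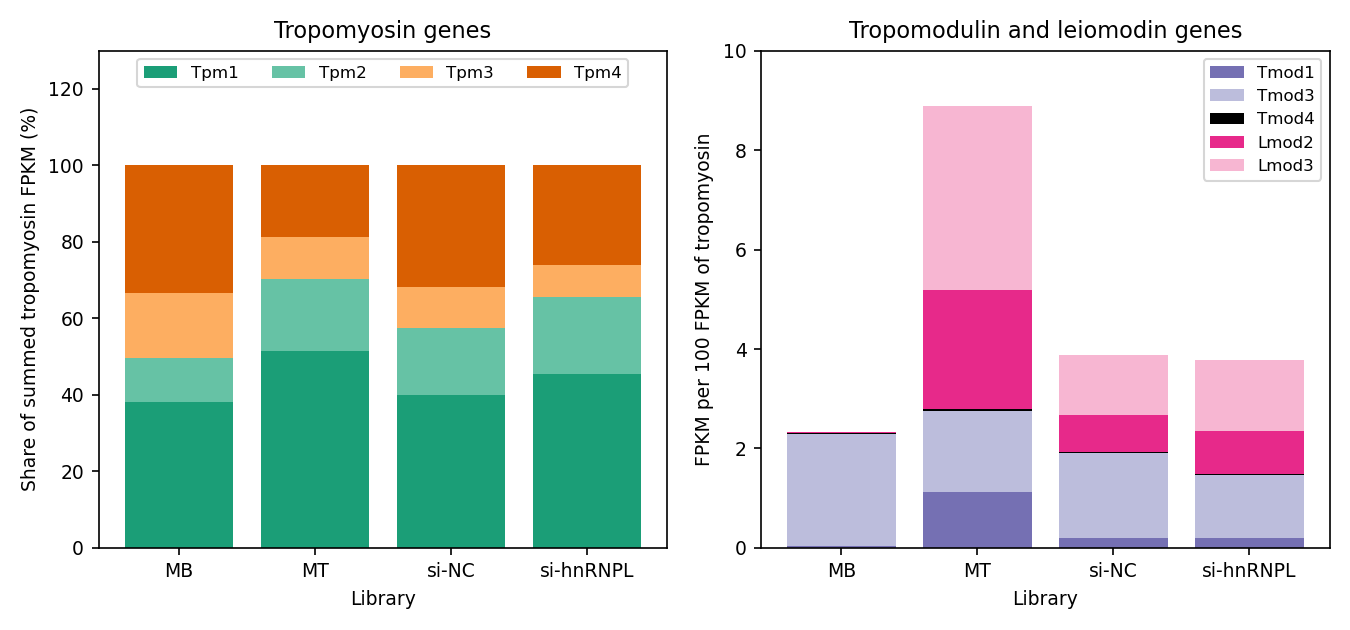
Left, share (%) of each gene in the summed FPKM of Tpm1 to Tpm4 in each library. Right, FPKM of tropomodulins and leiomodins per 100 FPKM of tropomyosin, stacked by gene. Tpm1 and Tpm2 hold 49.8% in MB and 70.2% in MT. Lmod2 and Lmod3 together reach 6.10 per 100 FPKM of tropomyosin in MT from 0.0163 in MB, and Lmod1 is not included.

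The tropomodulins went different ways. Tmod1, the tropomodulin of striated muscle, red cells and neurons, was at 0.516 FPKM (0.420 to 0.611) in MB and 9.98 FPKM (9.57 to 10.4) in MT, 19.4-fold higher (16.0 to 23.4), with a log2 change of 2.86 (2.75 to 2.96). Tmod3, the tropomodulin of most cell types, was at 26.5 FPKM (25.9 to 27.1) in MB and 14.4 FPKM (14.0 to 14.8) in MT. This was 1.84-fold lower (1.77 to 1.91), a log2 change of -0.84 as deposited. The change of Tmod3 turned to 0.18 after rescaling to equal sums, and was -0.30 with only loci of 200 bp or more in the sums. Tmod4, the tropomodulin of skeletal muscle fibres, was at 0.324 FPKM (0.203 to 0.444) in MB and 0.404 FPKM (0.273 to 0.535) in MT. These rest on about 29 and 38 fragments and their intervals overlap, so no difference in Tmod4 was detectable at this depth.

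Tmod3 made up 96.9% (96.4 to 97.5) of the summed FPKM of the 3 tropomodulins in MB and 58.1% (56.8 to 59.4) in MT. Tmod1 made up 1.89% (1.54 to 2.23) in MB and 40.3% (39.0 to 41.5) in MT. The sum itself was 27.3 FPKM (26.7 to 28.0) in MB and 24.8 FPKM (24.2 to 25.4) in MT as deposited, and 52.0 FPKM in MT when rescaled to the sum of MB. Rescaling over loci of 200 bp or more was not run for the tropomodulin sum. The 3' part of the Tmod1 locus overlaps Tstd2 by 1286 bases, and Tstd2 was at 17.9 FPKM in MB and 17.4 in MT as deposited. Its part in the values of Tmod1 was not tested. The Tmod1 locus was the only member locus that overlapped another named entry. RefSeq also lists 3 pseudogenes named after Tpm3, none with an entry of its own in the tables, and the sharing of fragments between these copies and Tpm3 was not tested.

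Lmod2, the leiomodin of heart and skeletal muscle, was at 0.0935 FPKM (0.0435 to 0.143) in MB and 21.2 FPKM (20.5 to 22.0) in MT, 227-fold higher (133 to 388), with a log2 change of 4.35 (4.26 to 4.43). Lmod3, the leiomodin of nemaline myopathy, was at 0.0985 FPKM (0.0507 to 0.146) in MB and 32.9 FPKM (32.0 to 33.7) in MT, 334-fold higher (205 to 542), with a log2 change of 4.95 (4.87 to 5.02). The MB values rest on about 14 and 17 fragments, so the folds have wide intervals, and for both genes the intervals of the MB and MT levels lay far apart. Among the entries counted, 0.444% changed as far upward as Lmod2 and 0.296% as far as Lmod3. Both genes passed the limit on level only through MT and so had to differ, so these percentages only describe size. The 2 genes had overlapping intervals in MB, and in MT Lmod3 was 1.55 times Lmod2 (1.48 to 1.62). Of their relatives that are not members, Lmod1, the leiomodin of smooth muscle, was at 5.95 FPKM in MB and 4.83 in MT (log2 change -0.26), and Tmod2, the neuronal tropomodulin, was at 0.239 and 0.0936 FPKM.

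Set against tropomyosin, tropomodulins stood at 2.32 per 100 FPKM (2.26 to 2.37) in MB and 2.80 (2.72 to 2.87) in MT. Lmod2 and Lmod3 together stood at 0.0163 per 100 (0.0104 to 0.0221) in MB and 6.10 (5.97 to 6.23) in MT. Lmod1, which is not a member, was left out of this sum and was at 5.95 FPKM in MB and 4.83 in MT. Among the members, Tmod3 was thus nearly the whole of the pointed-end message in MB. In MT, Lmod2 and Lmod3 exceeded the 3 tropomodulins together. The actin message also differed, with the sarcomeric actins Acta1 and Actc1 summing to 13.2 FPKM in MB and 702 FPKM in MT, and the cytoplasmic actins Actb and Actg1 to 1982 and 985 FPKM as deposited. Rescaled to the sum of MB, which includes Mir3113 (29.4%) and Mir5098 (8.74%), the cytoplasmic actins in MT came to 2067 FPKM. Their lower level was thus not seen under that scaling. Rescaling over loci of 200 bp or more was not run for this sum.

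**Figure D3:**
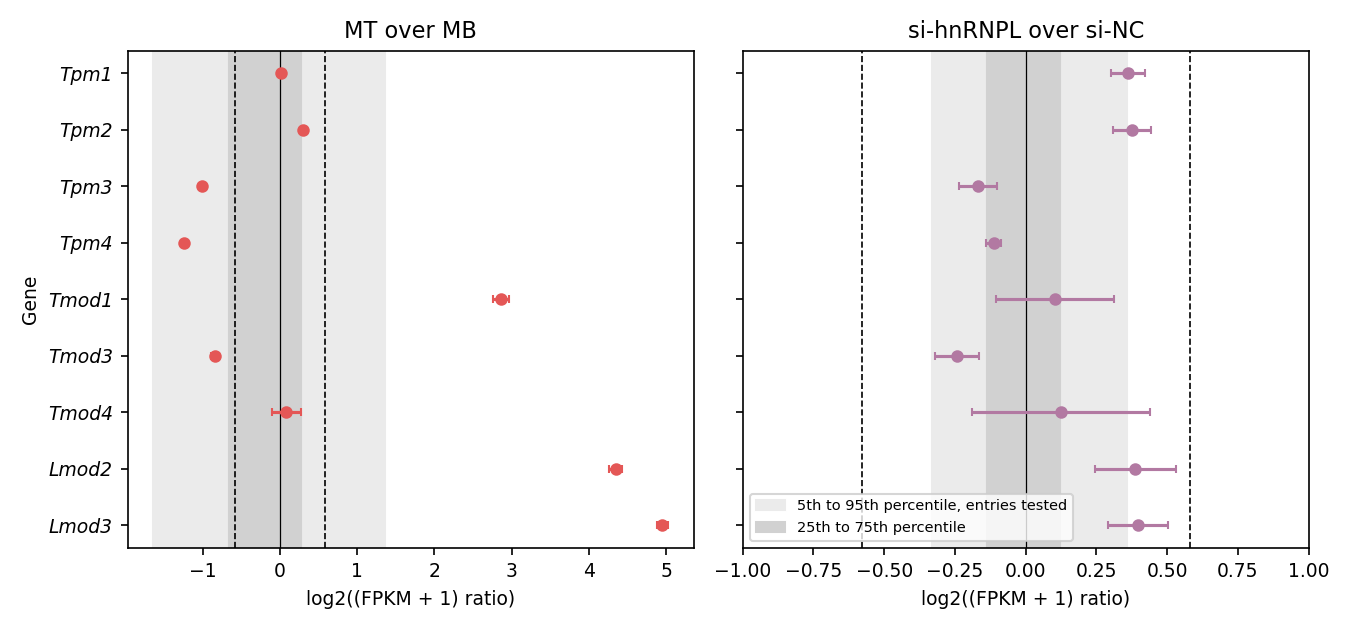
Log2((FPKM + 1) ratio) of the 9 genes in MT over MB (left) and si-hnRNPL over si-NC (right, narrower axis), with propagated 95% intervals. Dashed lines mark the limit of 0.58, and grey bands the 25th to 75th and 5th to 95th percentiles of all named entries counted. Tmod1, Lmod2 and Lmod3, which were counted only through MT, lie far above the band on the left. No member passes a dashed line on the right.

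The 28 listed partners of the thin filament gave the setting of these changes. In MT over MB 27 were counted, of which 16 were up, 7 down and 4 neither, with a median log2 change of 2.25. Of the 16 up, 9 were under 1 FPKM in MB, passed the limit on level only through MT and so had to differ. Among the 18 partners at 1 FPKM or more in both libraries, 7 were up and 7 down, with a median of -0.32. Over all entries counted 14.6% were up and 28.9% down, and these include entries under 1 FPKM in MB or in MT. All 8 troponins were up, 4 of them counted only through MT (Tnnc2, Tnni2, Tnni3 and Tnnt3), with Tnnt3, the fast troponin T, at 0.613 FPKM in MB and 295 in MT (log2 change 7.52), and Tnnc2, the fast troponin C, at 0.499 and 211 FPKM (7.15). Acta1, skeletal alpha-actin, was at 12.1 FPKM in MB and 479 in MT, and Actc1, cardiac alpha-actin, at 1.05 and 223. The nebulins Neb and Nrap were up and Nebl was too low to count. Klhl40 and Klhl41, which stabilize leiomodin and nebulin, were both up. Neb, Nrap, Klhl40 and Klhl41 were all counted only through MT. The 7 that were down comprised both cytoplasmic actins, 4 of the 6 factors of monomer supply and turnover, and Actg2, smooth muscle gamma-actin, which had the lowest change at -2.47 (225 and 39.8 FPKM). Wdr1, a cofactor of cofilin, was next at -1.23 (230 and 97.6 FPKM). The 3 subunits of the barbed-end capping protein were neither up nor down, at -0.44 to -0.04. Counts of genes that were down depended on scaling. After rescaling to equal sums 0 of the 8 members and 1 of the partners remained down, and 5 and 20 were up. Over all 12004 entries counted under this rescaling, 7382 were up and 704 down.

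Splicing regulators were read as well, since gene totals hide the choice of exons. Whether each of them acts on tropomyosin exons in these cells was not tested. Of the 7 listed, 0 were up and 2 down in MT over MB as deposited, beside 14.6% and 28.9% over all entries. Ptbp1, which represses muscle exons in several genes, was at 125 FPKM in MB and 28.9 in MT (log2 change -2.08). Hnrnpl was at 111 and 63.0 FPKM (-0.81 as deposited). The change of Hnrnpl was 0.25 after rescaling to equal sums, and -0.25 with only loci of 200 bp or more in the sums. Rbfox2 and Mbnl2 had the highest changes, at 0.42 and 0.13. After rescaling to equal sums these came to 1.48 and 1.18 and Ptbp2 to 1.00, all past the limit upward, while Ptbp1 stood at -1.04. The median of all entries counted under this rescaling was 0.78. With only loci of 200 bp or more in the sums, Rbfox2 stood at 0.98, Mbnl2 at 0.69 and Ptbp1 at -1.53. Ptbp2 was then short of the limit at 0.52, and the median of all entries counted was 0.31. With transcript length and GC content taken out, Rbfox2 stood at 0.36, Mbnl2 at -0.15, Ptbp2 at -0.27 and Ptbp1 at -2.06. Isoforms of the tropomyosins were not measured here.

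Markers of other lineages moved with this comparison. The smooth muscle list (Myh11, Smtn, Cnn1) summed to 67.9 FPKM in MB and 14.6 in MT, with 2 of 3 at or above 1 FPKM in both and the defining gene Myh11 under 0.1, and the neuronal list (Tubb3, Snap25) to 56.4 and 11.4 FPKM, with Snap25 under 0.1. The differentiated muscle list summed to 1.28 FPKM in MB and 595 in MT. In bulk RNA, fewer fused cells and less message per cell cannot be told apart, and the part of these lists in the values of the members was not tested.

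The genes whose levels over the 4 libraries lay nearest to the 3 most changed members were ranked by Euclidean distance of log2(FPKM + 1) among 10416 genes, as a description of likeness. Nearest to Lmod3 were R3hdml (distance 0.53), Hfe2 (0.53), which encodes hemojuvelin, and Itgb1bp2 (0.58), which encodes the muscle protein melusin. Nearest to Lmod2 were Smyd1 (0.36), a methyltransferase of striated muscle, Csrp3 (0.41), the muscle LIM protein, and Pgam2 (0.58), the muscle phosphoglycerate mutase. Nearest to Tmod1 were Hdac11 (0.44), a histone deacetylase, Klhl31 (0.50) and Phyhd1 (0.56). Smyd1, the nearest of these, was at 0.230 FPKM in MB, 17.5 in MT, 12.1 in si-NC and 15.1 in si-hnRNPL.

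The comparison of si-hnRNPL with si-NC asks how these genes respond when hnRNPL is targeted. Hnrnpl itself was at 95.1 FPKM in the control and at 85.9 FPKM after si-hnRNPL, a log2 change of -0.14 (-0.20 to -0.09), in the direction of the label. Of all entries counted 44.9% changed at least as far, and with 1 library per condition the extent of the knockdown could not be judged from these data. Tpm1, Tpm2, Lmod2 and Lmod3 were each 1.29- to 1.33-fold higher in si-hnRNPL (the ratio of Tpm2 was 1.30), and Tpm3, Tpm4 and Tmod3 were slightly lower, in every case beyond counting error and short of the limit for a call. Of the 8 members counted 0 were up and 0 down, where over all 11234 entries 1.36% were up and 0.863% down. A count of 0 among 8 genes is near this background. The median change of the members was 0.23, against -0.010 over all entries counted.

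The control library had Tpm1 at 685 FPKM (666 to 705) and the si-hnRNPL library at 881 FPKM (855 to 907), a ratio of 1.29 (1.23 to 1.34) and a log2 change of 0.36 (0.30 to 0.42). Tpm2 was at 303 FPKM (293 to 313) and 393 FPKM (380 to 406), a log2 change of 0.38 (0.31 to 0.44). Both were higher in si-hnRNPL, and 4.88% and 4.32% of the entries counted were at or above them. Tpm3 was at 183 FPKM (178 to 189) in si-NC against 163 FPKM (157 to 169) in si-hnRNPL, a log2 change of -0.17 (-0.24 to -0.10). Tpm4 was at 548 FPKM (542 to 554) and 506 FPKM (499 to 513), a log2 change of -0.11 (-0.14 to -0.09). These 2 were lower in si-hnRNPL, by less than a large share of all entries moved, since 37.8% and 55.7% of them changed at least as far in either direction.

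The makeup of the tropomyosin message differed accordingly. Tpm1 and Tpm2 together made up 57.5% (56.9 to 58.1) in si-NC against 65.6% (64.97 to 66.2) in si-hnRNPL. Tpm1 alone stood at 39.9% (39.1 to 40.6) and 45.3% (44.5 to 46.2), and Tpm4 at 31.9% (31.4 to 32.4) and 26.0% (25.6 to 26.5). For each FPKM of Tpm4 there was 0.552 FPKM of Tpm2 (0.533 to 0.572) in si-NC against 0.777 (0.749 to 0.805) in si-hnRNPL. These libraries differ from MB and MT in RNA selection and time in DM, so their shares stand beside the earlier ones without a comparison.

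Tmod1 was at 3.50 FPKM (3.09 to 3.92) in si-NC against 3.84 FPKM (3.31 to 4.37) in si-hnRNPL, with overlapping intervals and a log2 change of 0.10 (-0.10 to 0.31). Tmod3 was at 29.4 FPKM (28.4 to 30.4) and 24.7 FPKM (23.6 to 25.8), a log2 change of -0.24 (-0.32 to -0.16) that was the lowest among the members. Tmod4 was at 0.201 FPKM (0.0490 to 0.352) and 0.309 FPKM (0.0754 to 0.543), about 7 fragments in each library, and no difference was detectable. Tmod3 remained the main tropomodulin, with 88.8% (87.6 to 90.1) of the tropomodulin FPKM in si-NC against 85.6% (83.8 to 87.4) in si-hnRNPL.

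Lmod2 was at 12.7 FPKM (11.8 to 13.7) in si-NC against 17.0 FPKM (15.7 to 18.3) in si-hnRNPL, a log2 change of 0.39 (0.24 to 0.53). Lmod3 was at 20.7 FPKM (19.7 to 21.8) and 27.6 FPKM (26.0 to 29.1), a log2 change of 0.40 (0.29 to 0.50), the highest among the members. The ratio of Lmod3 to Lmod2 was 1.63 (1.49 to 1.78) in si-NC against 1.62 (1.48 to 1.79) in si-hnRNPL, and these intervals overlapped. Their relative Lmod1 was at 1.87 FPKM in si-NC against 3.37 in si-hnRNPL. Its log2 change of 0.60 (0.43 to 0.78) lay just past the limit, which fell within the interval. Whether this call holds under the other scalings was not tested. Per 100 FPKM of tropomyosin, Lmod2 and Lmod3 together stood at 1.95 (1.86 to 2.03) and 2.29 (2.18 to 2.40), without Lmod1. The tropomodulins stood at 1.93 (1.86 to 2.00) and 1.49 (1.42 to 1.55). Lmod3 was below Tmod3 in si-NC and above it in si-hnRNPL, with intervals that did not overlap in either library.

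Among the thin filament partners 26 were counted in this comparison, of which 3 were up and 0 down, beside 1.36% and 0.863% over all entries, with a median log2 change of 0.23. The 3 were Acta1, at 1009 FPKM in si-NC against 1537 in si-hnRNPL (0.61), Tnnc1, the slow and cardiac troponin C, at 677 and 1047 (0.63), and Tnnc2, at 265 and 408 (0.62). They lay just past the limit. After rescaling to equal sums they stood at 0.49, 0.51 and 0.51, and with transcript length and GC content taken out at 0.44, 0.39 and 0.38, so 0 of the 3 calls held under either, or at a 2-fold limit. Actc1 was at 364 and 510 FPKM (0.48), and the lowest changes were those of Capza1 (-0.16) and Capza2 (-0.04), subunits of the barbed-end cap. Of the splicing regulators 0 were up or down, from Ptbp2 at -0.25 to Ptbp1 at -0.04.

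**Figure D4:**
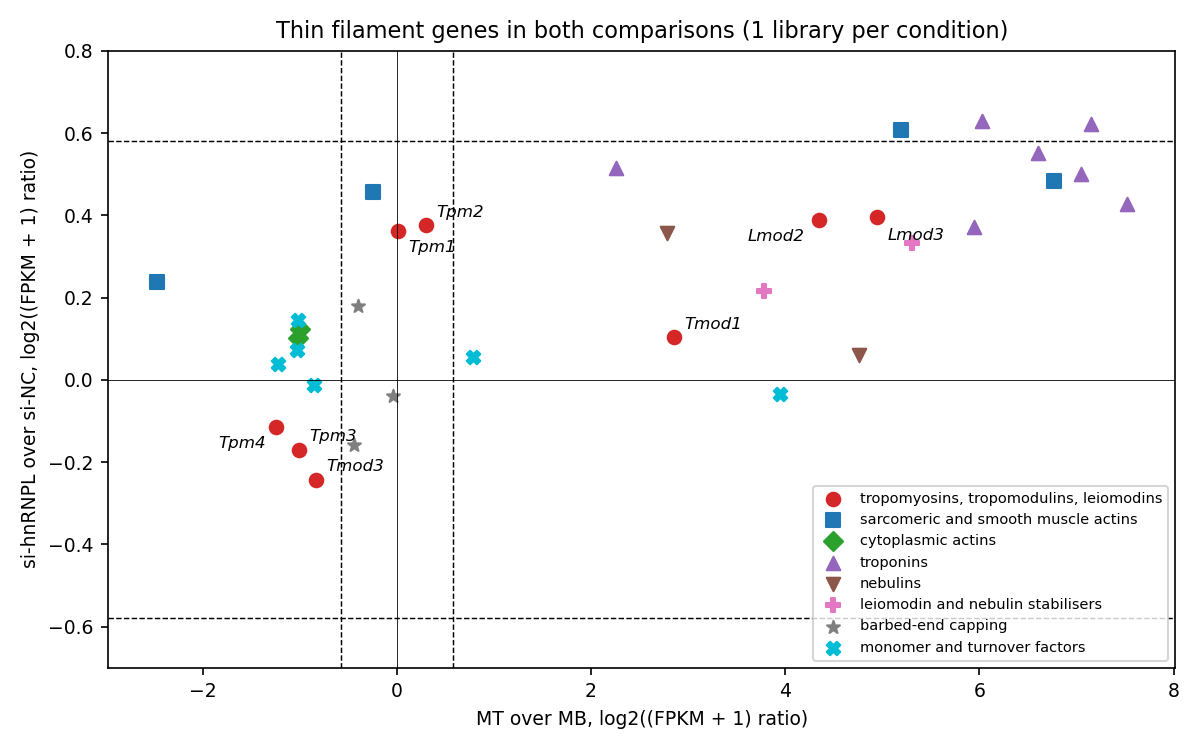
Log2((FPKM + 1) ratio) of each thin filament gene counted in both comparisons, MT over MB on the horizontal axis and si-hnRNPL over si-NC on the vertical axis, with dashed lines at 0.58 in both directions. Lmod2 (4.35, 0.39) and Lmod3 (4.95, 0.40) lie at the upper right below the 3 genes past the upper line, and Tpm3, Tpm4 and Tmod3 lie at the lower left.

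Several measures moved with the siRNA comparison. The differentiated muscle markers summed to 586 FPKM with si-NC against 808 FPKM with si-hnRNPL, and the smooth muscle list to 39.6 and 42.4. The neuronal list went the other way, at 50.7 and 39.3 FPKM, nearly all of it Tubb3 (log2 change -0.36), with Snap25 under 0.1. Over 9958 genes, the log2 change had a Spearman correlation of -0.45 with transcript length and 0.42 with GC content, as a description across genes that share both libraries. With length and GC content taken out, Tpm1 stood at 0.37, Tpm2 at 0.28, Lmod2 at 0.36 and Lmod3 at 0.39, and Tpm3, Tpm4 and Tmod3 at -0.18, -0.12 and -0.14. The direction of each of these 7 genes was thus the same without the trend, and the part of these marker lists in the values of the members was not tested.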

How the data were processed

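C2C12 MB and MT were compared by total RNA-seq and MT treated with si-hnRNPL or si-NC by polyA RNA-seq, with groups taken from the sample labels. After removing reads under 36 bp, the authors aligned to mm9 using TopHat2 and quantified with Cufflinks. They deposited FPKM values per gene with a 95% interval. Each change is a log2((FPKM + 1) ratio), with intervals propagated from both half-widths, and counted as up or down at 0.58 or more among entries with a mean FPKM of at least 1. Fragments were implied as (2 x FPKM / (upper bound - FPKM)) squared. No test was possible with 1 library per condition. All 9 members are named, and of the partner lists the 2 largest rises and the 2 largest falls, with Acta1, Actc1 and Hnrnpl. Lmod1, Tmod2, Smyd1 and the partners named only by direction were added after their values were seen. The members and lists were chosen with earlier results of these data known. Annotation came from GENCODE for mm9 and promoters from RefSeq (GRCm38.p6). Alternatives were pseudocounts of 0.1 and 0.01, a 2-fold limit, other filters, and scalings, of which rescaling over loci of 200 bp or more and taking out length and GC in 20 bins were added after seeing the data. The software was matplotlib 3.10.9, scipy 1.17.1, pandas 2.3.3 and numpy 2.4.6 in Python 3.11.15, and the calculations were tested on simulated data.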

Additional observations from a re-analysis of the deposited data

Results flagged for a closer look

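An assembled transcript unit without a gene symbol inside the Tmod1 locus (chr4:46125418-46127173, mm9) was at 0.418 FPKM (0.308 to 0.528) in MT and 0.234 FPKM (0.150 to 0.319) in MB. It was singled out because it lies in data that no comparison above used and stood above the MB level. Its log2((FPKM + 1) ratio) was 0.20 (0.05 to 0.35), short of the limit of 0.58, and 0 assembled units overlapped the other 8 genes.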

How the results depend on the processing

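No paired analysis was possible because each condition has 1 library, and for the same reason no library could be left out. Rescaling MB and MT to equal FPKM sums moved the median change of all entries from -0.21 to 0.78 and the calls from 1672 up and 3317 down to 7382 and 704. Members then gave 5 up and 0 down, and partners 1 down. Tpm3 (0.049), Tmod3 (0.18) and Hnrnpl (0.25) reversed. Summed over loci of 200 bp or more, the median was 0.31 with 4032 up and 1362 down, members gave 5 up and 1 down, and partners 2 down. In that setting Tpm3 (-0.45), Tmod3 (-0.30) and Hnrnpl (-0.25) did not reverse and were short of the limit. Centring on the median gave 2423 up and 2231 down and left the 3 up and 3 down members as counts. In si-hnRNPL over si-NC, partners up came to 0 at a 2-fold limit, after either rescaling, and with length and GC content taken out. Either rescaling gave 89 up and 190 down, or 93 and 177, over all entries, and with length and GC taken out 48 and 57. A pseudocount of 0.01 gave 265 up and 200 down, and 2-fold 35 and 16, and in MT over MB 2-fold gave 877 and 1551. Counts of members were 0 in both directions in the siRNA comparison under every alternative run. Shares from the lowest and highest bounds of each interval kept Tpm1 and Tpm2 larger in MT than in MB. The depth limits Tmod4 in all 4 libraries and both leiomodins in MB.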
